A study of Homo sapiens with 6 samples.

Results

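The transcripts examined here encode the enzymes that write and remove N6-methyladenosine (m6A), the methyl mark on internal adenosines of mRNA. The 10 genes were fixed by name: METTL3, METTL14 and METTL16, which belong to the methyltransferase class, the complex subunits WTAP, RBM15, RBM15B, ZC3H13 and CBLL1, and the demethylases FTO and ALKBH5. All 10 were found among the 16551 genes of the deposited count table, each on a single line, and all 10 passed the low-count filter that left 12264 genes for testing. The study compared 3 libraries named NC with 3 named si-YTHDF2, all from HaCaT, an immortalised human keratinocyte line (spelled HaCat in the labels). By usual notation NC is a control, and si-YTHDF2 names a small interfering RNA that targets the m6A reader YTHDF2. The headers add Input to each column of counts, a term that no label explains. The labels give no dose, time, siRNA sequence or further agent for either group, and do not say whether replicates 1 to 3 were separate cultures. The p-values below therefore measure no more than how these libraries vary, and that variation may be technical.

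In mammalian nuclei METTL3 is the subunit that transfers the methyl group from S-adenosylmethionine, and METTL14 is its partner, which has the methyltransferase fold but no catalytic activity of its own and helps to hold the RNA. A second, larger assembly of WTAP, VIRMA, ZC3H13, CBLL1 and RBM15 or its paralog RBM15B localises the enzyme to nuclear speckles and directs it to its sites. METTL16 works apart from that complex, on a small set of structured RNAs. FTO and ALKBH5 are iron- and 2-oxoglutarate-dependent dioxygenases that remove the methyl group, and FTO also acts on the related cap-adjacent mark. YTHDF2 binds m6A in the cytoplasm and recruits the deadenylation machinery, so it reads the mark that these proteins set.

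Library totals lay between 19803707 and 22698069 counts, and each member had between 526 and 3494 counts in each library. YTHDF2, the targeted gene, measured 74.6, 77.5 and 83.8 CPM (counts scaled to library size with TMM factors) in NC and 43.0, 48.4 and 43.5 CPM in si-YTHDF2. No library of either group overlapped the other. The si-YTHDF2 mean was 57.1% of the NC mean (exact two-sided permutation test, p = 0.1, the smallest that 3 against 3 allows). Of 12 keratinocyte markers, all tested, 2 were higher and 5 lower by the test described below, beside 26.1% and 25.2% of all tested genes. Their summed level was 4770 to 5073 CPM in NC and 4768 to 5218 CPM in si-YTHDF2, but single markers moved both ways. The higher ones were KRT5 and COL17A1, with si-YTHDF2 means of 117.5% and 155% of the NC mean. The lower ones were TP63 (81.85%), ITGA6 (77.4%), DSG3 (84.5%), DSC3 (57.7%) and IVL (38.1%). KRT5 was abundant at 2029 CPM in NC, but its usual partner KRT14 was near 0, at 0.549, 1.68 and 4.43 CPM in the NC libraries. The NC libraries also stood apart from each other in KRT1, a keratin of differentiating keratinocytes, at 0.229, 6.40 and 40.1 CPM, and in the collagen gene COL3A1, at 33.5, 10.8 and 8.0 CPM. The summed level of 6 fibroblast markers, 0 of them called, was 25.9 to 76.6 CPM in NC and 34.6 to 41.6 CPM in si-YTHDF2. The calls of the 6 members described below held when any one library was left out. That does not test what part these differences among the NC libraries have in the members' values. Other cell type markers differed between the groups. All 7 tested of 10 erythroid markers were higher in si-YTHDF2, with a summed level of 55.7 to 58.2 CPM in NC and 1543 to 1775 CPM in si-YTHDF2. ALAS2, HEMGN, SLC4A1 and CA1 among them had 0 to 5 counts in each NC library. They passed the low-count filter only through si-YTHDF2, so they could be called only higher. HBB, HBA1 and HBA2 had at least 81 counts in each NC library. Of 10 leukocyte markers 5 were tested, 4 of them higher and 1 lower, with sums of 3.89 to 4.62 and 15.5 to 18.03 CPM. The 4 higher ones, PTPRC, LYZ, ITGAM and CSF3R, rose 11.45- to 17.85-fold, but they too passed the filter only through si-YTHDF2. CD14, the lower one, made the largest part of the NC sum, with means of 3.19 and 1.93 CPM. Both tested platelet markers of 5 listed were higher (0.406 to 0.595 against 7.24 to 8.52 CPM). Those 2, PPBP and PF4, with 0 to 7 counts in each NC library, also passed the filter only through si-YTHDF2. All 8 markers of a list of simple, secretory and mucosal epithelium were lower (17110 to 17810 against 6801 to 7595 CPM). KRT13, which with KRT4 is a keratin of stratified mucosa, made the largest part of that sum, with means of 9391 and 1941 CPM. KRT4, MUC16 and MUC1 had si-YTHDF2 means of 1.71%, 20.7% and 51.4% of the NC mean. The simple-epithelium keratins KRT7, KRT8, KRT18 and KRT19 had si-YTHDF2 means of 80.2%, 77.7%, 83.5% and 69.8% of the NC mean. What part these marker differences have in the values below was not tested, and in bulk RNA fewer cells of a type and less RNA per cell cannot be told apart.

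The transcripts of the m6A machinery were split by direction: METTL3, ZC3H13 and FTO fell, and WTAP, RBM15 and ALKBH5 rose. METTL14, METTL16, RBM15B and CBLL1 did not pass the test. Calls were made with edgeR's quasi-likelihood test at a Benjamini-Hochberg adjusted p under 0.05 over all tested genes. By that rule 6 of 10 members were called, beside 51.2% of all tested genes, so the members were called about as often as the table as a whole. By direction, 3 members were higher, beside 26.1% of genes, and 3 lower, beside 25.2%. The groups did not overlap for 7 of 10 members, beside 58.5% of genes. The changes were small. No member reached 1.5-fold together with a call, a size that 16.8% of tested genes reached, and the members' median size of log2 fold change was 0.25 against 0.26 over all genes. The members' log2 fold changes ran from -0.45 to 0.31, with a median of 0.04 against 0.01 over all tested genes.

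**Figure D1:**
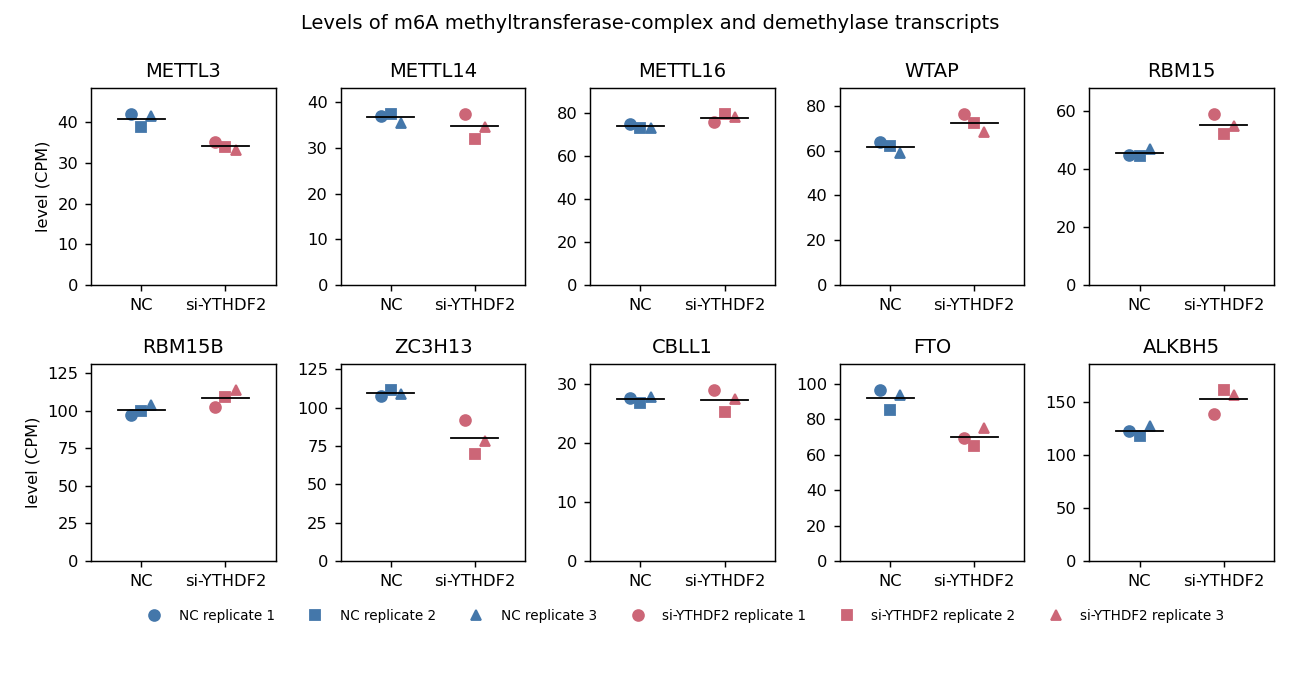
Level in CPM (vertical axis, from 0) of each of the 10 transcripts in 3 NC and 3 si-YTHDF2 libraries; the marker shape gives the replicate number and the black line the mean of a group. The groups are apart for METTL3, METTL16, WTAP, RBM15, ZC3H13, FTO and ALKBH5, and overlap for METTL14, RBM15B and CBLL1.

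Among the methyltransferase-class genes, METTL3, the catalytic subunit (ENSG00000165819; chromosome 14, 21498133 to 21511375, minus strand, GRCh38), measured 42.2, 38.8 and 41.5 CPM in NC. In si-YTHDF2 it measured 35.2, 34.0 and 33.2 CPM, each below the lowest NC library. The means were 40.8 ± 1.78 and 34.1 ± 1.01 CPM (SD, n = 3 each), and the fitted log2 fold change was -0.26 (SE 0.07, 95% interval -0.41 to -0.11; edgeR, adjusted p = 0.00712). METTL3 shares 345 exonic bases at its 3′ end with TOX4 on the opposite strand, and the use of strand in counting is not given in the sources used here. Reads from that stretch cannot be assigned to either gene. For TOX4 the log2 fold change was 0.14 (edgeR, adjusted p = 0.0452). Leaving out any one library but si-YTHDF2 replicate 1 ended that call, with adjusted p from 0.0641 to 0.191. Under edgeR it also ended with RLE factors (adjusted p = 0.0577), without the low-count filter (0.0528) and with the replicate number as a block (0.05175). It ended too with DESeq2 (adjusted p = 0.0712) and at an adjusted p under 0.01.

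METTL14, the RNA-holding partner (ENSG00000145388; chromosome 4, 118685368 to 118715433, plus strand), measured 37.0, 37.5 and 35.5 CPM in NC and 37.5, 32.0 and 34.6 CPM in si-YTHDF2. The groups overlapped, since si-YTHDF2 replicate 1 lay within the NC values. The log2 fold change was -0.08 with a 95% interval of -0.24 to 0.09 (edgeR, adjusted p = 0.416), an interval that includes no change and a fall close to that of METTL3. METTL16 (ENSG00000127804; chromosome 17, 2405562 to 2511891, minus strand) measured 74.9, 73.2 and 73.3 CPM in NC and 75.6, 79.8 and 78.4 CPM in si-YTHDF2. Its groups did not overlap, but the log2 fold change of 0.08 (95% interval -0.04 to 0.19) did not pass the test (edgeR, adjusted p = 0.244). Scaled by library totals alone it was 0.14 and did pass (edgeR, adjusted p = 0.0388).

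The best-known mRNA substrate of METTL16 is MAT2A, which encodes the catalytic subunit of S-adenosylmethionine synthetase and so supplies the methyl donor of the methyltransferases. METTL16 recognises the nonamer TACAGAGAA, or TACAGAAAA (DNA letters), in hairpins of the MAT2A 3′ untranslated region. The GENCODE 29 transcript of MAT2A, of 2819 bases, held 6 copies of the nonamer, all after the stop codon on the plus strand of chromosome 2. They are shown with 10 bases on each side because they are the sites through which METTL16 is known to act, and capitals mark the nonamer. Site 5 holds the second form and the other sites the first.
site 1, chr2:85543802-85543830: tggcgtaggcTACAGAGAAgccttcaagc
site 2, chr2:85544589-85544617: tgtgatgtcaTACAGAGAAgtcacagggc
site 3, chr2:85544774-85544802: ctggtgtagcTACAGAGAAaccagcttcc
site 4, chr2:85544889-85544917: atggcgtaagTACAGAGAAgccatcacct
site 5, chr2:85545004-85545032: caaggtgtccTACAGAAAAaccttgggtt
site 6, chr2:85545112-85545140: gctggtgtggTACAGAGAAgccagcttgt

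Either form of the nonamer was present in 8.56% of the representative transcripts of the 12264 tested genes, and only 1 of them, MAT2A itself, held 6 or more. A match is a run of letters and not a measured methylation site. MAT2A measured 213, 203 and 199 CPM in NC and 244, 245 and 259 CPM in si-YTHDF2, with every si-YTHDF2 library above every NC library. The log2 fold change was 0.28 (SE 0.05; edgeR, adjusted p = 4.61e-04), and its call held under all 16 alternatives.

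Of the 5 regulatory subunits, WTAP and RBM15 rose, ZC3H13 fell, and RBM15B and CBLL1 did not pass the test. WTAP, the scaffold that ties the regulatory subunits to METTL3 and METTL14 (ENSG00000146457; chromosome 6, 159725585 to 159756319, plus strand), measured 63.7, 61.9 and 58.7 CPM in NC. It measured 76.5, 72.2 and 68.3 CPM in si-YTHDF2, all above the NC libraries. The rise was 0.24 on the log2 scale (SE 0.06; edgeR, adjusted p = 0.0058). The span of WTAP overlaps that of SOD2 on the opposite strand, with 0 exonic bases in common with the SOD2 identifier that carries nearly all of its counts. For that identifier of SOD2, a mitochondrial superoxide dismutase, the log2 fold change was 0.28 (edgeR, adjusted p = 0.00415). A second SOD2 identifier, with 2 or 3 counts in each library, shares 139 exonic bases with WTAP. Reads from those 139 bases cannot be assigned to either gene.

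ZC3H13, a zinc finger protein that anchors the regulatory assembly in the nucleus (ENSG00000123200; chromosome 13, 45954465 to 46052759, minus strand), had the lowest log2 fold change of the members. Its levels were 107, 112 and 109 CPM in NC and 91.8, 69.8 and 78.4 CPM in si-YTHDF2. All si-YTHDF2 libraries lay below NC, but they spread more, and replicate 1 was the highest of them. The means were 109 ± 2.24 and 80.0 ± 11.1 CPM (SD, n = 3 each), and the log2 fold change was -0.45, with a 95% interval of -0.62 to -0.28 (edgeR, adjusted p = 4.10e-04). The si-YTHDF2 mean was 73.2% of the NC mean, and 71.6% of tested genes changed less in size.

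The paralogs RBM15 and RBM15B bind RNA and recruit the complex, and in human cells both are known to act on XIST RNA among other targets. RBM15 (ENSG00000162775; chromosome 1, 110338506 to 110346681, plus strand) measured 44.8, 44.5 and 46.9 CPM in NC and 59.2, 52.2 and 54.7 CPM in si-YTHDF2. It rose by a log2 fold change of 0.29, with a 95% interval of 0.14 to 0.43 (edgeR, adjusted p = 0.00256). RBM15B (ENSG00000259956; chromosome 3, 51391268 to 51397908, plus strand) measured 96.9, 99.9 and 104 CPM in NC and 102, 109 and 114 CPM in si-YTHDF2, and its groups overlapped. Its log2 fold change was 0.11, with a 95% interval of -0.01 to 0.24 (edgeR, adjusted p = 0.122). It passed the test with library totals (0.18; edgeR, adjusted p = 0.0166) and without si-YTHDF2 replicate 1 (0.16; edgeR, adjusted p = 0.00939). RBM15B shares 1325 exonic bases with DCAF1 on the opposite strand, for which the log2 fold change was 0.13 (edgeR, adjusted p = 0.0619). DCAF1 passed the test in the same alternatives as RBM15B, library totals (edgeR, adjusted p = 0.0084) and without si-YTHDF2 replicate 1 (0.01).

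CBLL1, also known as HAKAI, is a ubiquitin ligase that stabilises the regulatory assembly (ENSG00000105879; chromosome 7, 107743697 to 107761667, plus strand). It measured 27.7, 26.7 and 27.7 CPM in NC and 29.02, 25.2 and 27.4 CPM in si-YTHDF2, and the NC libraries lay inside the range of the si-YTHDF2 libraries. The log2 fold change was -0.01, with a 95% interval of -0.18 to 0.16 (edgeR, adjusted p = 0.941), and its sign changed with the scaling.

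The 2 demethylases moved in opposite directions. FTO (ENSG00000140718; chromosome 16, 53701692 to 54158512, plus strand) measured 96.6, 85.3 and 93.6 CPM in NC and 69.4, 64.9 and 75.1 CPM in si-YTHDF2. The si-YTHDF2 libraries were all lower. The means were 91.8 ± 5.80 and 69.8 ± 5.11 CPM (SD, n = 3 each). The log2 fold change was -0.40, with a 95% interval of -0.54 to -0.25 (edgeR, adjusted p = 2.78e-04). ALKBH5 (ENSG00000091542; chromosome 17, 18183078 to 18209954, plus strand) measured 122, 117 and 127 CPM in NC and 139, 161 and 156 CPM in si-YTHDF2, with the groups apart. Its means were 122 ± 4.75 and 152 ± 11.8 CPM (SD, n = 3 each), and its log2 fold change was 0.31 with a 95% interval of 0.18 to 0.45 (edgeR, adjusted p = 9.41e-04). ALKBH5 shares 357 exonic bases with AC087164.1 on the opposite strand, a gene without deposited counts. In the same way FTO shares 180 with AC007347.2, RBM15 175 with RBM15-AS1 and CBLL1 70 with AC002467.1. Reads from those stretches cannot be assigned to a gene either.

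FTO lies head to head with RPGRIP1L, a gene of the ciliary transition zone on the minus strand. The RefSeq start of FTO is 218 bases from the start of RPGRIP1L in GENCODE 29, whereas the GENCODE model of FTO begins further upstream, within RPGRIP1L. RPGRIP1L measured between 14 and 16.0 CPM in NC and 13.4, 11.8 and 10.7 CPM in si-YTHDF2, so its groups did not overlap either. Its fitted change was -0.33 on the log2 scale (SE 0.11; edgeR, adjusted p = 0.0242). Under edgeR the adjusted p rose to 0.0643 when NC replicate 2 was left out, 0.0872 when NC replicate 3 was, 0.0678 when si-YTHDF2 replicate 2 was and 0.0905 when si-YTHDF2 replicate 3 was, and to 0.0701 with library totals, so the call ended in each. The stretch of 217 bases between the FTO and RPGRIP1L starts is shown, from RefSeq on GRCh38.p14, because the genes start at its opposite ends. The 250 bases before the RefSeq start of ALKBH5 are shown beside them as the promoter of the demethylase that moved the other way. The GENCODE model of ALKBH5 also begins further upstream, at 18183078, so by that model these 250 bases lie within the gene. Capitals mark GGGCGG, the core of the box bound by SP1-family factors, searched on both strands.
FTO, chr16:53703939-53704155, plus strand: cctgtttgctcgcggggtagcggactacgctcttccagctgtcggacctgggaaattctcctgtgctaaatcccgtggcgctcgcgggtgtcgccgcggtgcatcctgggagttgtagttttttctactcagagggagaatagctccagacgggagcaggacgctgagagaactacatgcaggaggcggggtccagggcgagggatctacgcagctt
ALKBH5, chr17:18183578-18183827, plus strand: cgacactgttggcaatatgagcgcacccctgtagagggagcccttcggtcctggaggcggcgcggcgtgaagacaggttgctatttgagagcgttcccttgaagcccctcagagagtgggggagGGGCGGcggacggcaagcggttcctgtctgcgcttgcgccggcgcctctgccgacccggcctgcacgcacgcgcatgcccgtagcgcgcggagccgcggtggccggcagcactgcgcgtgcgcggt

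The FTO stretch is 59.9% G and C with 17 CG dinucleotides, and the ALKBH5 stretch 70.0% with 32. All 10 members had at least 1 RefSeq promoter window, from 250 bases before the start to 50 after, and 5 of the 10 held GGGCGG. Of the 9656 tested genes with a window, 77% held it in at least 1 window, a larger share than of the members, and of all 35116 windows 45% held it. Those 5 were ALKBH5, WTAP, RBM15, RBM15B and CBLL1. The 3 members that rose held it, as did the uncalled RBM15B and CBLL1, and the 3 that fell did not, nor did the uncalled METTL14 and METTL16. The motif was chosen after the values were seen, so this split is no test of a link. Over the tested genes the motif went with little difference in calls: 26.8% of 7432 genes with it were higher and 24.9% lower, against 24.4% and 24.1% of 2224 genes without it. With GGGCGG, 6 motifs were searched on both strands. The others were CCAAT, which NF-Y binds, the TATA box TATAAA, the E-box CACGTG, the ETS-family motif CCGGAAG and the AP-1 motif TGACTCA. The AP-1 motif was in none of the members' windows and in those of 4.94% of tested genes (4.95% of all windows). The E-box was in those of RBM15 and RBM15B, and of 12.5% of tested genes (7.26% of all windows). CCAAT was in the windows of 7 members and of 43.6% of tested genes (34.6% of all windows). The ETS motif was in those of METTL3, METTL14, ZC3H13 and CBLL1, and of 22.5% of tested genes (10.3% of all windows). TATAAA was in that of METTL3 and in those of 8.45% of tested genes (11.5% of all windows).

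**Figure D2:**
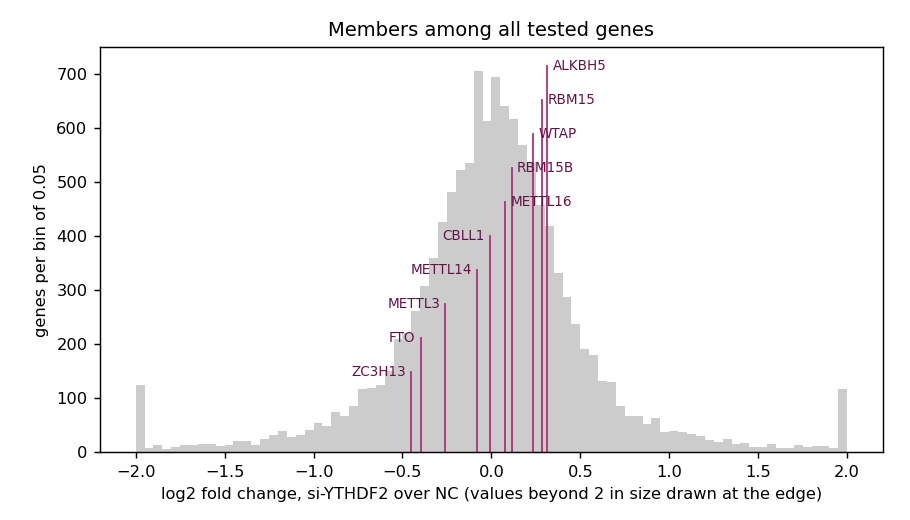
Number of tested genes (vertical axis) per bin of log2 fold change, si-YTHDF2 over NC (horizontal axis), in grey, with each of the 10 members as a labelled line whose height has no meaning. The members lie between -0.45 and 0.31, within the bulk of the 12264 genes.

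Ratios of counts within a library need no scaling between libraries, so they compare the changes of 2 members directly. For FTO over ALKBH5 the ratio was 0.790, 0.727 and 0.737 in NC, against 0.5002, 0.402 and 0.481 in si-YTHDF2. The mean fell from 0.751 ± 0.0339 to 0.461 ± 0.0518 (SD, n = 3 each) with no overlap, a log2 difference of -0.71 (SE 0.10). The WTAP over ZC3H13 ratio was 0.594, 0.554 and 0.538 in NC, against 0.833, 1.03 and 0.871 in si-YTHDF2, a log2 difference of 0.69 with a standard error of 0.10. METTL3 over METTL16 was 0.563, 0.531 and 0.567 in NC, against 0.466, 0.426 and 0.424 in si-YTHDF2, a log2 difference of -0.34 with a standard error of 0.05. These 3 ratios, and that of RBM15 over RBM15B, gave p = 0.1 by the exact two-sided permutation test, the smallest that 3 against 3 allows, and 0.125 adjusted over the 5 ratios tested. No ratio could pass 0.05 by this test, and the groups were apart in each of these 4.

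The other 2 ratios moved less. RBM15 over RBM15B was 0.463, 0.445 and 0.451 in NC, against 0.580, 0.478 and 0.481 in si-YTHDF2, a log2 difference of 0.17 that was 0.08 without si-YTHDF2 replicate 1. The METTL3 over METTL14 ratio was 1.14, 1.03 and 1.17 in NC, against 0.940, 1.06 and 0.960 in si-YTHDF2, and the groups overlapped. Its log2 difference was -0.18 with a standard error of 0.08 (exact two-sided permutation test, p = 0.2, and 0.2 adjusted). METTL3 was called and METTL14 was not, but no ratio could pass the threshold with 3 libraries against 3, so whether the changes of the 2 partners differ was not settled.

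**Figure D3:**
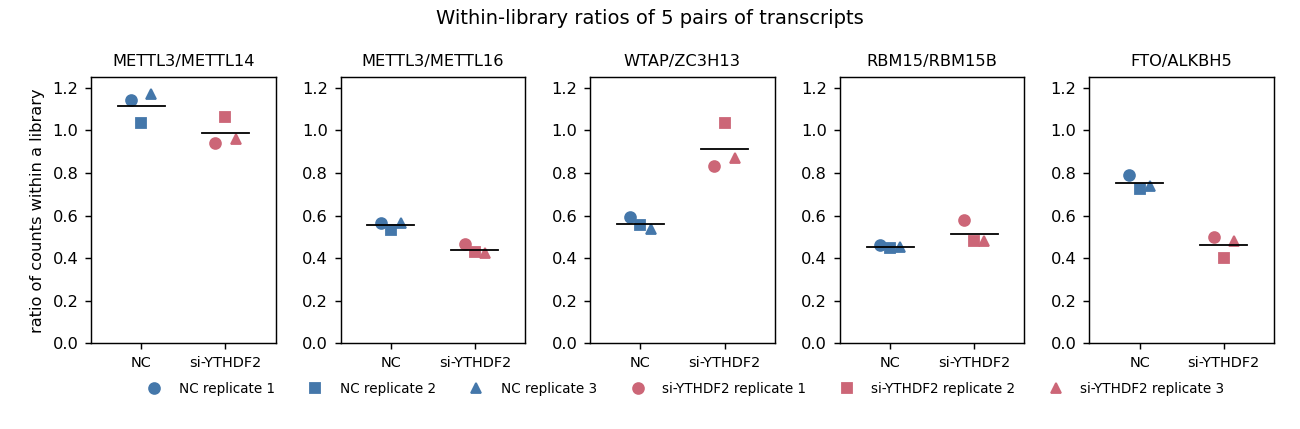
Ratio of counts (vertical axis, from 0) of 5 pairs of transcripts within each of the 3 NC and 3 si-YTHDF2 libraries; black lines are group means. FTO/ALKBH5 falls from a mean of 0.751 to 0.461 and WTAP/ZC3H13 rises from 0.562 to 0.912, while METTL3/METTL14 overlaps between the groups.

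Levels of different genes were compared only per length, as CPM per kb of exon, with the exons of GENCODE's basic transcripts merged. In NC, ALKBH5 was the most abundant at 41.6 ± 1.62 CPM per kb (SD, n = 3), followed by METTL3 at 20.3 ± 0.886 and RBM15B at 15.1 ± 0.535. METTL16 (12.9 ± 0.171) and WTAP (12.5 ± 0.511) overlapped, then came ZC3H13 (11.3 ± 0.231) and RBM15 (9.72 ± 0.284). FTO (6.29 ± 0.398) and CBLL1 (6.18 ± 0.126) overlapped, and METTL14 was the lowest at 5.50 ± 0.153 CPM per kb. In si-YTHDF2, ALKBH5 was again the highest at 51.8 ± 4.03 CPM per kb (SD, n = 3) and FTO had the lowest mean at 4.78 ± 0.350, with libraries that overlapped those of METTL14 (5.203 ± 0.408). There METTL3 (16.95 ± 0.499) overlapped RBM15B (16.3 ± 0.898), and ZC3H13 (8.25 ± 1.14), above RBM15 in NC, lay below it (11.9 ± 0.752) in every library.

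ALKBH5 was the highest in both groups under each of the 4 definitions of length tried. The rest of the order depended on the length used. FTO and METTL14 have long 3′ untranslated regions, of 10026 and 5131 bases in the representative transcript, against 120 for METTL3. Per kb of coding length METTL14 stood at 26.8 and METTL3 at 23.5 CPM in NC, the opposite order, and FTO was second to ALKBH5 at 60.6 CPM per kb. The members' representative transcripts held between 3 copies of GGACU, the most common m6A sequence context (METTL16, WTAP and CBLL1), and 8 (METTL14), or 0.425 to 1.99 per kb. At least 1 copy was present in 91.6% of tested transcripts, with a median of 0.933 per kb. Whether these copies are methylated was not measured in these data.

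**Figure D4:**
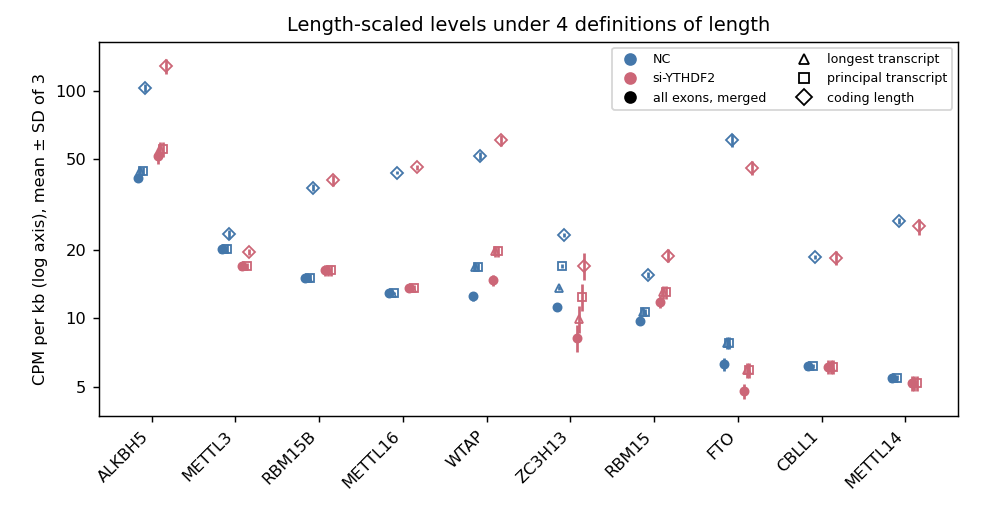
CPM per kb (vertical log axis) of the 10 transcripts, mean and SD of 3 libraries, in NC (blue) and si-YTHDF2 (red), with marker shapes for 4 definitions of length. ALKBH5 is the highest under each definition, and FTO goes from 6.29 with merged exons to 60.6 CPM per kb of coding length in NC.

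Other genes of the pathway were read from the same fit, in which 26.1% of all tested genes were called higher and 25.2% lower. Among 6 further genes of RNA methyltransferases and their partner subunits 1 was lower and 5 were not called. The lower one was VIRMA, the large scaffold of the regulatory assembly and so a partner of WTAP and ZC3H13, which measured 137, 131 and 140 CPM in NC and 123, 110 and 103 CPM in si-YTHDF2. It fell by 0.28 on the log2 scale (edgeR, adjusted p = 0.00312). For the cap-adjacent methyltransferase PCIF1 the log2 fold change was 0.18 (edgeR, adjusted p = 0.0806). PCIF1 passed the edgeR test with library totals (adjusted p = 0.0213), with the replicate block (0.0457) and without si-YTHDF2 replicate 1 (0.00941). Of the 7 other AlkB-family dioxygenases, relatives of FTO and ALKBH5, 2 were higher, 0 lower and 5 not called, and the split depended on the setting. With the length and GC trend removed ALKBH2 (-0.32; edgeR, adjusted p = 0.0192) and ALKBH7 (-0.20; 0.0239) were called lower. ALKBH2 was also called lower with RLE factors (edgeR, adjusted p = 0.0492) and without NC replicate 2 (0.0482). ALKBH6, at 14 to 34 counts a library, was called higher with library totals (edgeR, adjusted p = 0.0457) and without si-YTHDF2 replicate 1 (0.0452), as was ALKBH1 without that replicate (0.0217). ALKBH3, a repair enzyme for methylated bases, averaged 34.0 ± 0.935 CPM in NC and 46.9 ± 3.81 CPM in si-YTHDF2 (SD, n = 3 each), and rose by 0.46 on the log2 scale (edgeR, adjusted p = 1.66e-04). The tRNA-modifying ALKBH8 rose by 0.31 on the log2 scale (edgeR, adjusted p = 0.0299). With NC replicate 1 left out the edgeR adjusted p was 0.132, with NC replicate 3 left out 0.072 and with si-YTHDF2 replicate 3 left out 0.0772, and with DESeq2 it was 0.0617, so the call ended in each.

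The methyl donor is made from methionine by MAT2A with its regulatory subunit MAT2B, and the by-product is cleared by AHCY. Of 9 genes of this supply 2 were higher, 3 lower and 4 not called, beside 26.1% higher and 25.2% lower of all tested genes. MAT2B went the other way to MAT2A, with 158 ± 7.47 CPM in NC and 125 ± 6.57 CPM in si-YTHDF2 (SD, n = 3 each), and fell by 0.34 on the log2 scale (edgeR, adjusted p = 2.55e-04). For AHCY itself the log2 fold change was 0.01 (edgeR, adjusted p = 0.915), with a sign that depended on the setting, while its relatives AHCYL1 (-0.37) and AHCYL2 (-0.31) fell. The AHCYL2 call ended when NC replicate 1 (edgeR, adjusted p = 0.0574) or NC replicate 3 (0.0925) was left out and with library totals (0.0586), and that of MTRR (0.15; edgeR, adjusted p = 0.0442) was lost in 10 of 16 alternatives. Of the uncalled genes of this supply, MTR passed in 5 alternatives, MTAP in 2 and MTHFD1 in 1. Among the readers 1 was higher, 3 lower and 5 not called of 9 tested, YTHDF2 among them, beside the same shares of all tested genes. In that list YTHDF1 was higher (0.26) and IGF2BP2 (-0.44) and IGF2BP3 (-0.39) lower.

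**Figure D5:**
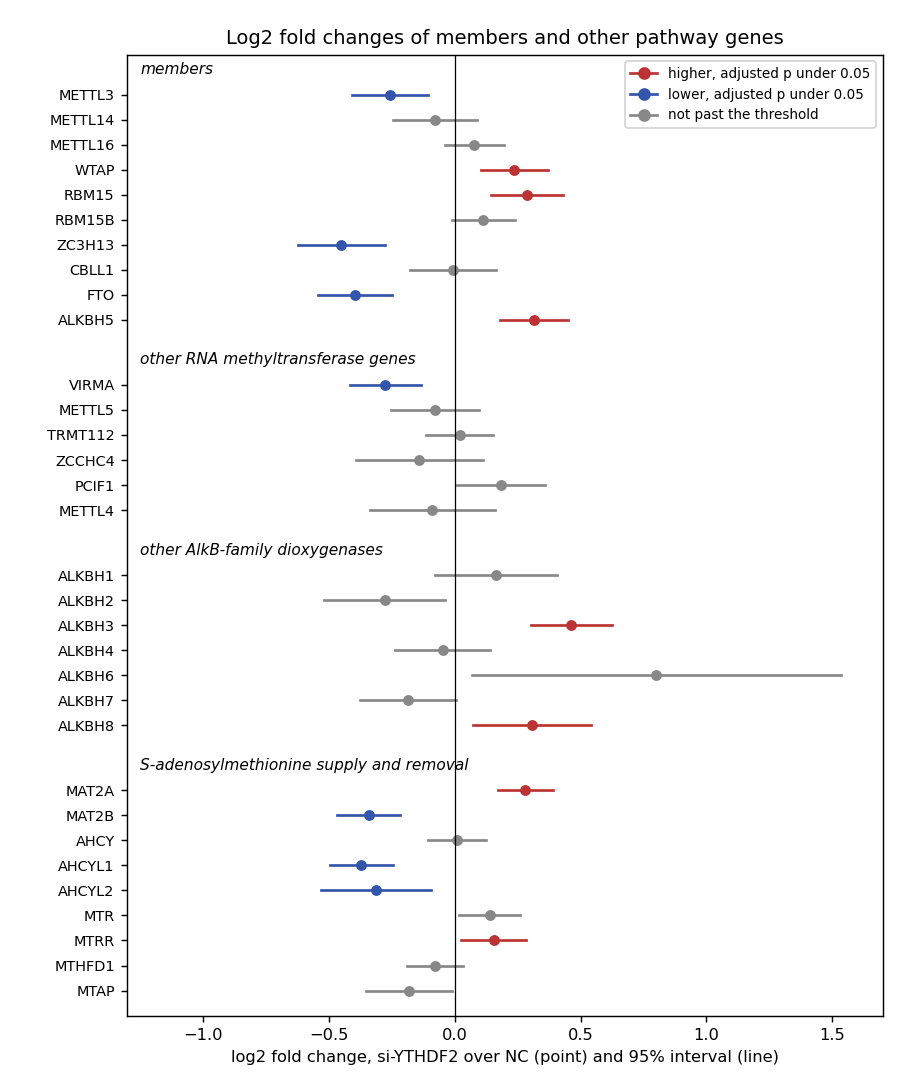
Log2 fold change of si-YTHDF2 over NC (horizontal axis; point) with its 95% interval (line) for the 10 members and 3 lists of other pathway genes; red and blue mark genes past the threshold. Among the members 3 are higher and 3 lower, and the intervals of METTL14, METTL16, RBM15B and CBLL1 include 0.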

How the data were processed

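Ribosomal RNA-depleted total RNA libraries were sequenced, per the labels' protocols. The authors deposited a raw count per gene and library, per the file headers, on the genome build hg38, per the submitters' processing notes. The sources used here name no aligner or counter and do not state the use of strand. The table lists 16551 protein-coding genes; the 6 columns that the authors normalized with edgeR, and 2 lines that name no gene, were left out.

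Counts were tested with edgeR 4.0.16 in R 4.3.3 (TMM factors, filterByExpr, glmQLFit and glmQLFTest, no covariate), with Benjamini-Hochberg adjustment over 12264 genes. The standard error is the size of the log2 fold change over the square root of F. CPM use the same factors. Lengths, positions and transcripts came from GENCODE 29, promoters from RefSeq. On simulated data over 12158 genes, changes of 0.25, 0.5, 1 and 2 on the log2 scale were given to 50 genes each. They were called for 34%, 88%, 100% and 100% of those genes, with 10 false calls. No other gene was changed in the simulation, whereas 51.2% of tested genes were called in the data. Small changes were missed in that setting, and its shares may not be those of this comparison. Errors are the spread over the 3 libraries of a group.

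The members, gene lists and tests were chosen with earlier results of these data known. Named genes are the members, YTHDF2, pathway genes past the test or with the smallest p, MAT2A, genes overlapping a member, and genes of the marker lists. A gene of the methyl donor list is not reported here and is left out of its counts. Promoter motifs and the nonamer were chosen after the values were seen. The alternatives were library totals, upper-quartile or RLE factors in place of TMM, limma-voom (limma 3.58.1), DESeq2 1.42.0, other filters and thresholds, removal of a length and GC trend, a replicate block and leaving out each library. Markers of endothelium (1 of 4 higher) and melanocytes (2 tested, 1 lower) were also read.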

Additional observations from a re-analysis of the deposited data

How the results depend on the processing

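Under 16 alternatives METTL3, WTAP, RBM15, ZC3H13, FTO, ALKBH5 and YTHDF2 kept their direction and their call, with log2 fold changes of -0.31 to -0.19, 0.20 to 0.30, 0.22 to 0.35, -0.56 to -0.36, -0.46 to -0.33, 0.25 to 0.38 and -0.86 to -0.74. The members called were 6 in 14 alternatives, 8 with library totals and 7 without si-YTHDF2 replicate 1. Genes called over the table ran from 4656 (adjusted p under 0.01) to 6945 (length and GC trend removed). With library totals 61.3% of calls were higher, against 50.9% with TMM, and the median log2 fold change over all genes was 0.08. The signs that reversed belonged to genes that were not called. With library totals CBLL1 was 0.0576 and ALKBH4 0.018, and with DESeq2 AHCY was -0.0004. With the length and GC trend removed CBLL1 was 0.0497, TRMT112 -0.0229 and AHCY -0.0503. Leaving out each library in turn took CBLL1 from -0.0524 to 0.0443, TRMT112 from -0.034 to 0.0819, METTL4 from -0.1697 to 0.007, ALKBH4 from -0.0978 to 0.0316, AHCY from -0.0248 to 0.0661, YTHDF3 from -0.081 to 0.0716, YTHDC1 from -0.1157 to 0.6826 and HNRNPA2B1 from -0.0418 to 0.0613. The cause was not tested. The replicate numbers do not pair the libraries by the check used: same-numbered libraries' deviations correlated at 0.06, 0.05 and 0.03, none over 0.1, although each library correlated best with its own number. With the replicate number as a block the table gave 6438 calls and the members the same 6, FTO over ALKBH5 had a log2 difference of -0.71 (exact paired p = 0.25, the smallest 3 pairs allow), and the ratio of METTL3 over METTL14 had p = 0.5. Left-out libraries moved the log2 difference of FTO over ALKBH5 between -0.77 and -0.61 and that of WTAP over ZC3H13 between 0.60 and 0.76. At this depth and number of libraries the intervals of the 4 uncalled members allow changes of up to 0.24 in size.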
